A study of Rattus norvegicus with 4 samples.

Results

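Ctgf (ENSRNOG00000015036, now named Ccn2), Cyr61 (ENSRNOG00000014350, now named Ccn1) and Tgfb1 (ENSRNOG00000020652) encode secreted proteins of the extracellular matrix and of TGF-β signalling, and are described here in cultured neonatal rat heart muscle cells. The members were picked by gene identifier, and all 3 were listed among the 26406 features of each of the 4 libraries. The files carry identifiers without symbols for these genes, so the pairing of identifier and symbol comes from the selection rule. The cells were ventricular myocytes from 2-day-old Sprague Dawley hearts in primary culture. Transfection lasted 6 h and used an siRNA directed at Chaer, a long noncoding RNA, or a negative control siRNA. The cells were then cultured for 48 h with or without 50 µM phenylephrine, an α1-adrenergic agonist used to make such cells hypertrophic.

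The 4 groups were Chaer siRNA with phenylephrine, control siRNA with phenylephrine, Chaer siRNA alone and control siRNA alone. Every group was 1 library, so no value has an error from replicate cultures, and the labels do not say whether the libraries came from separate cultures. Intervals below are 95% counting intervals, which treat reads as independent molecules. The sources used here do not say whether counting used strand, so antisense reads at the 3 genes cannot be told apart. The libraries held 33944988 to 39155363 reads in listed features. Chaer itself was not analysed here, so its knockdown was not checked, and the cardiomyocyte label was not set against marker genes because the reference table paired 0 of the identifiers with symbols.

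CCN proteins are matricellular proteins: they are secreted, bind integrins, matrix and growth factors, and modulate adhesion and growth rather than forming the scaffold. Ctgf and Cyr61 are textbook target genes of the YAP and TAZ coactivators, which reach DNA through TEAD factors, and both respond to mechanical load and to growth stimuli acting through G protein-coupled receptors. Tgfb1 encodes the latent cytokine TGF-β1, which signals through receptor kinases and SMAD proteins and is a well-known inducer of Ctgf. In the heart these genes are made by muscle cells and by fibroblasts, and they are studied as part of hypertrophy and fibrosis.

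The sequences just before the 3 genes are shown because Ctgf and Cyr61 were both higher with phenylephrine, unlike Tgfb1, in the values that follow. A link between the sequences and those values was not tested. They are the 250 bases before the annotated start of each gene in RefSeq on assembly GRCr8, on the strand of the gene, and RefSeq lists Ctgf and Cyr61 as Ccn2 and Ccn1. Capitals mark the letters of the TEAD motif (GGAATG on either strand, which reads CATTCC on the other) and of the TATA motif (TATAAA on the strand of the gene). The windows are chr1:22624615-22624864 (minus strand), chr2:237225690-237225939 (minus strand) and chr1:90324062-90324311 (plus strand).
Ctgf: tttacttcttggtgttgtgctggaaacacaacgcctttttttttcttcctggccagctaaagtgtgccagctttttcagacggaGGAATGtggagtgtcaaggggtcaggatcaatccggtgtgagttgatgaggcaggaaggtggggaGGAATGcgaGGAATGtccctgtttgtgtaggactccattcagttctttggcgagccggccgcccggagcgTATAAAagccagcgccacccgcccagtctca
Cyr61: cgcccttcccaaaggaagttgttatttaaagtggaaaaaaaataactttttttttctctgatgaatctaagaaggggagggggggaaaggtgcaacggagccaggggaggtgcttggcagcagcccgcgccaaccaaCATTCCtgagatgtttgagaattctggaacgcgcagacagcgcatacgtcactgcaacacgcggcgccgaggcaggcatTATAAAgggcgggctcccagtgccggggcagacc
Tgfb1: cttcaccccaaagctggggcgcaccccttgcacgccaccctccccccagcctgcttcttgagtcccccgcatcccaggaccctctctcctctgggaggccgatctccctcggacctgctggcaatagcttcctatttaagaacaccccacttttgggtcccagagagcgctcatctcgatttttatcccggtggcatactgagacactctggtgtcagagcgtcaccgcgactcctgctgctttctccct

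The Ctgf window held 3 matches to GGAATG, of which 2 lay close together, starting 101 and 92 bases before the gene, and the other started at 166 bases. Cyr61 held 1 match, on the opposite strand, and Tgfb1 held 0. Of 33469 promoter windows of the same length, 12.1% held at least 1 match and 0.0807% held at least 3. Ctgf and Cyr61 each also had a TATAAA, starting 31 and 34 bases before the gene, and Tgfb1 had none in this window. That motif occurred in 8.06% of windows, and both motifs occurred together in 1.09%.

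Other motifs were searched on both strands. CAGAC, a core that SMAD proteins bind, occurred 1 time before Ctgf, 2 times before Cyr61 and 0 times before Tgfb1, and in 42.9% of all windows. TGACG, the half-site of the cAMP response element, occurred 0 times before Ctgf, and 1 time each before Cyr61 and Tgfb1, and in 18.2% of windows. The AP-1 motif TGANTCA and the CArG box that binds serum response factor occurred 0 times in the 3 windows, and in 6.34% and 1.5% of all windows. None of the matches in the 3 windows overlapped another. The motifs were chosen with these sequences in view, and a match describes letters, not binding.

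**Figure D1:**
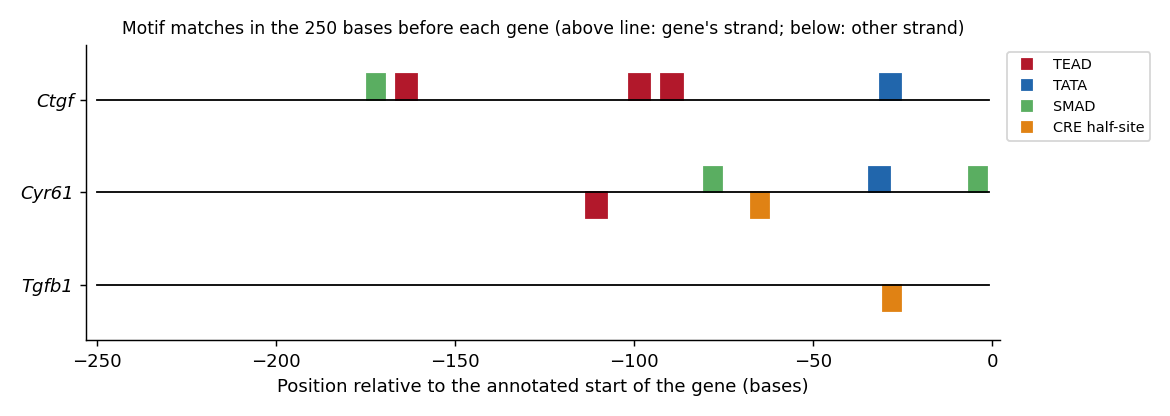
Motif matches in the 250 bases before each gene, with distance from the annotated start of the gene in bases on the x axis and 1 line for each gene. Boxes above a line are matches on the strand of the gene and boxes below it are on the other strand; Ctgf has 3 TEAD boxes, Cyr61 has 1 and Tgfb1 has 0.

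Ctgf was the most abundant of the 3 genes and had the largest range. Its level, in RPKM (reads divided by the length of the gene model in kilobases and by read depth, so that genes of different length can be compared), was 504 (500.0 to 509) with Chaer siRNA and phenylephrine. It was 398 RPKM (393 to 402) with control siRNA and phenylephrine, 166 RPKM (163 to 168) with Chaer siRNA alone and 123 RPKM (121 to 125) with control siRNA alone. The levels rest on 10623 to 48059 reads per library, on a gene model of 2333 bp. Both phenylephrine libraries lay above both unstimulated ones, and no counting intervals overlapped, so all neighbours in this order differed beyond counting error. Among all listed features Ctgf had the 103rd highest RPKM with Chaer siRNA and phenylephrine and the 137th with control siRNA and phenylephrine. Without phenylephrine it ranked 401st with Chaer siRNA and 506th with control siRNA.

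Cyr61, the other CCN gene, had a lower RNA level than Ctgf in each library and separated the libraries mainly by phenylephrine. Its level was 99.3 RPKM (97.1 to 101) with Chaer siRNA and phenylephrine and 98.3 RPKM (96.0 to 101) with control siRNA and phenylephrine. Without phenylephrine it was 57.9 RPKM (56.3 to 59.6) with Chaer siRNA and 53.5 RPKM (51.8 to 55.2) with control siRNA. The counting intervals of both phenylephrine libraries overlapped each other. Those of the unstimulated libraries did not overlap at the deposited scaling, and both lay far below the stimulated ones. These values rest on 3925 to 8041 reads per library, on a gene model of 1984 bp.

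RNA of Tgfb1, the cytokine gene, was far less abundant, and its order of libraries was by siRNA first. It had 7.16 RPKM (6.50 to 7.88) with Chaer siRNA and phenylephrine and 11.3 RPKM (10.4 to 12.2) with control siRNA and phenylephrine. With Chaer siRNA alone it had 8.99 RPKM (8.24 to 9.79), and with control siRNA alone 12.8 RPKM (11.9 to 13.8). Both Chaer siRNA libraries lay below both control siRNA libraries, with no overlap of counting intervals between the siRNAs. Within control siRNA the intervals of the levels with and without phenylephrine overlapped, and within Chaer siRNA they did not. A library held 426 to 691 reads of it, on a gene model of 1456 bp, so counting error is a larger share of the level here than for the CCN genes. Across the 12226 features whose mean level reached 1 RPKM, between 38.2% and 53.5% of features were less abundant than Tgfb1 in a given library. For Ctgf this share was 95.9% to 99.2%, and for Cyr61 88.3% to 94.1%.

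**Figure D2:**
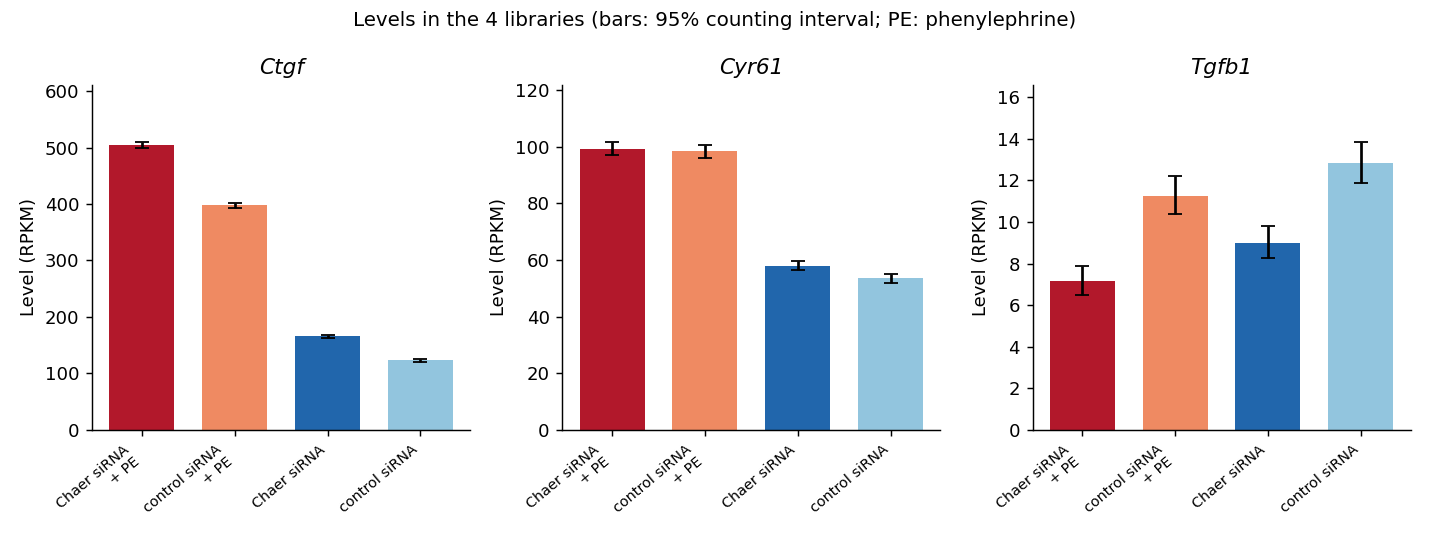
Levels of Ctgf, Cyr61 and Tgfb1 in RPKM (y axes, each from 0 and with its own scale) in the 4 libraries, 1 library a bar, with 95% counting intervals as error bars. Ctgf and Cyr61 are high in both phenylephrine libraries (504 and 398 RPKM, and 99.3 and 98.3 RPKM), while Tgfb1 is lowest in both Chaer siRNA libraries (7.16 and 8.99 RPKM).

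Phenylephrine with control siRNA addressed the hypertrophic stimulus in cells not given the siRNA directed at Chaer, and in it Ctgf was 3.23-fold higher (3.16 to 3.30). Cyr61 was 1.84-fold higher (1.77 to 1.91) and Tgfb1 1.14 times lower (1.02 to 1.27). With 1 library a group there is no test, and a size rule was used instead, a ratio of at least 2-fold in RPKM + 1. By this rule 1 of the 3 genes passed, Ctgf, beside 1.73% of all 12226 features compared. At 1.5-fold Cyr61 passed too, beside 7.56% of features. On the log2 scale of RPKM + 1 the ratio of Ctgf was 1.68, the 35th highest of these features, and that of Cyr61 was 0.87, the 198th highest. Tgfb1 had -0.17, inside the central 50% of all features, whose median was -0.07.

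Under Chaer siRNA the phenylephrine ratios, taken from the other 2 libraries, had the same direction for each gene. Ctgf was 3.05-fold higher (2.99 to 3.10), Cyr61 1.71-fold higher (1.65 to 1.78) and Tgfb1 1.26 times lower (1.103 to 1.43). Again Ctgf was the only member at least 2-fold apart, beside 1.97% of features, and at 1.5-fold Cyr61 passed too, beside 10.2%. The log2 ratios of RPKM + 1 were 1.60 for Ctgf, the 29th highest, 0.77 for Cyr61, the 263rd highest, and -0.29 for Tgfb1, with 26.0% of features lower. The median over all features was -0.10.

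Measured as a difference of levels, the step in Ctgf with phenylephrine was 339 RPKM (counting half-width 5.20) under Chaer siRNA and 274 RPKM (counting half-width 4.90) under control siRNA. The step was thus larger under Chaer siRNA in RPKM while the fold was smaller, and the unstimulated level was also higher. For Cyr61 the steps were 41.3 RPKM (counting half-width 2.74) under Chaer siRNA and 44.8 RPKM (counting half-width 2.86) under control siRNA. In bulk RNA such as this, more RNA per cell and more cells of a type that makes the transcript cannot be told apart.

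Chaer siRNA without phenylephrine addressed the baseline of cells given this siRNA, and all 3 genes differed by less than 2-fold, beside 2.13% of features past that size. None reached 1.5-fold either, which 11.1% of features did. Ctgf was 1.35-fold higher (1.31 to 1.38), Cyr61 1.08-fold higher (1.04 to 1.13) and Tgfb1 1.43 times lower (1.27 to 1.60). In the distribution of log2 ratios of RPKM + 1, 10.1% of features were higher than Ctgf at 0.42 and 9.80% were lower than Tgfb1 at -0.47. Cyr61 at 0.11 was inside the central 50%. With the 20 most abundant features left out of the scaling, Cyr61 had 0.03, Ctgf 0.34 and Tgfb1 -0.54. Those features held 24.7% of the reads in listed features with control siRNA alone and 20.5% with Chaer siRNA alone.

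With phenylephrine present in both libraries, Chaer siRNA was again accompanied by more Ctgf and less Tgfb1. Ctgf was 1.27-fold higher (1.25 to 1.29) and Tgfb1 1.57 times lower (1.38 to 1.79). Cyr61 had a ratio of 1.009 (0.977 to 1.04), an interval that includes equal levels, and its sign turned when reads of the 20 most abundant features were left out of the scaling. Again 0 of 3 genes passed 2-fold, beside 1.85% of features, and at 1.5-fold (0.585 on the log2 scale) Tgfb1 passed narrowly, beside 8.78%. That pass rests on a log2 ratio of -0.587, which was -0.579 with TMM, -0.564 with median-ratio scaling and -0.419 with a pseudocount of 5. The ratio was -0.645 with a pseudocount of 0.1 and -0.601 with the 20 most abundant features left out of the scaling. Of all features, 11.9% had a higher log2 ratio of RPKM + 1 than Ctgf at 0.34, and 4.29% had a lower one than Tgfb1 at -0.59.

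**Figure D3:**
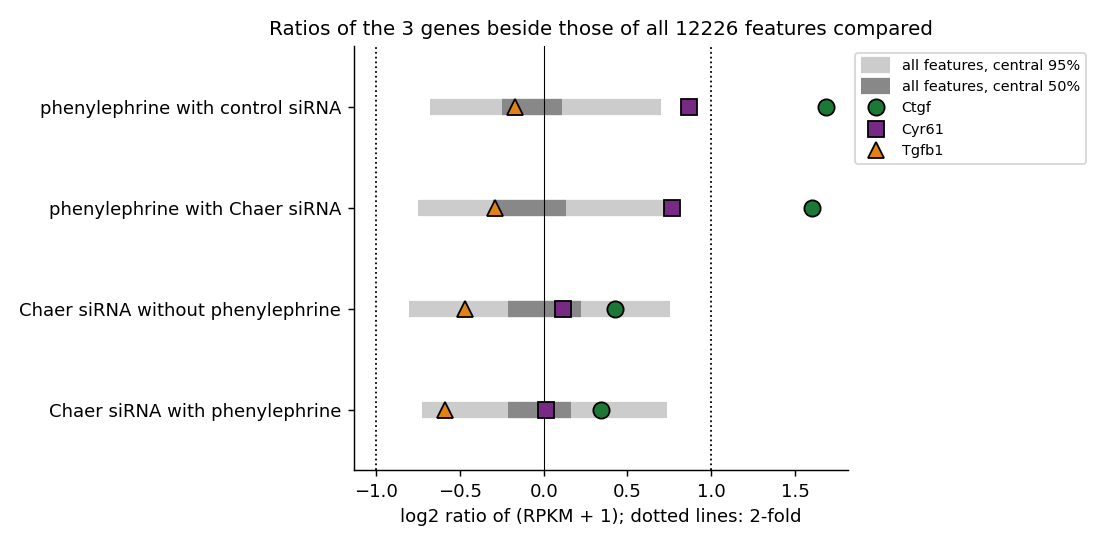
Log2 ratios of (RPKM + 1) for Ctgf, Cyr61 and Tgfb1 (x axis) in the 4 comparisons (y axis), with light and dark grey bars for the central 95% and 50% of all 12226 features and dotted lines at 2-fold. Ctgf lies past 2-fold in both phenylephrine comparisons (1.68 and 1.60), and all 3 genes lie inside the central 95% in both Chaer siRNA comparisons.

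Whether the phenylephrine response depended on the siRNA was asked with the ratio of the 2 folds, Chaer siRNA over control siRNA. It was 0.943 (0.917 to 0.971) for Ctgf, 0.932 (0.884 to 0.983) for Cyr61 and 0.908 (0.767 to 1.07) for Tgfb1. As log2 differences of RPKM + 1 these were -0.08, -0.10 and -0.12, beside a median of -0.06 and an SD of 0.31 over all features. Larger differences in either direction occurred for 79.0% of features in the case of Ctgf, 74.6% for Cyr61 and 70.0% for Tgfb1. None of the 3 reached 2-fold, beside 0.540% of features. The sizes depended on the scaling. With median-ratio scaling the log2 differences were -0.040 for Ctgf, -0.058 for Cyr61 and -0.083 for Tgfb1. With the 20 most abundant features left out of the scaling they were -0.016, -0.034 and -0.056. For Ctgf both values lay nearer to equal responses than its counting interval allows. With both factors together, Chaer siRNA with phenylephrine against control siRNA alone, Ctgf was 4.10-fold higher (4.01 to 4.19), Cyr61 1.86-fold higher (1.79 to 1.93) and Tgfb1 1.79 times lower (1.58 to 2.03).

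Ratios between the genes inside 1 library do not depend on the scaling between libraries, and Ctgf over Tgfb1 spanned the widest range. That ratio of RPKM values was 70.4 (64.0 to 77.6) with Chaer siRNA and phenylephrine and 35.3 (32.5 to 38.4) with control siRNA and phenylephrine. It was 18.4 (16.9 to 20.1) with Chaer siRNA alone and 9.59 (8.88 to 10.4) with control siRNA alone. Phenylephrine thus went with a 3.82-fold larger ratio (3.36 to 4.35) under Chaer siRNA and a 3.68-fold larger one (3.29 to 4.12) under control siRNA. Chaer siRNA went with a 1.99-fold larger ratio (1.76 to 2.26) with phenylephrine and a 1.92-fold larger one (1.71 to 2.15) without it.

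The CCN genes also moved unequally relative to each other. Ctgf over Cyr61 was 5.08 (4.96 to 5.20) with Chaer siRNA and phenylephrine, 4.04 (3.94 to 4.15) with control siRNA and phenylephrine, 2.86 (2.77 to 2.95) with Chaer siRNA alone and 2.30 (2.22 to 2.39) with control siRNA alone. The phenylephrine change of this ratio was 1.78-fold (1.71 to 1.85) under Chaer siRNA and 1.76-fold (1.68 to 1.84) under control siRNA, intervals that overlap. Cyr61 over Tgfb1 was 13.9 (12.6 to 15.3) with Chaer siRNA and phenylephrine, 8.73 (8.02 to 9.52) with control siRNA and phenylephrine, 6.44 (5.88 to 7.06) with Chaer siRNA alone and 4.17 (3.84 to 4.53) with control siRNA alone. All 3 ratios had the same order of libraries.

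**Figure D4:**
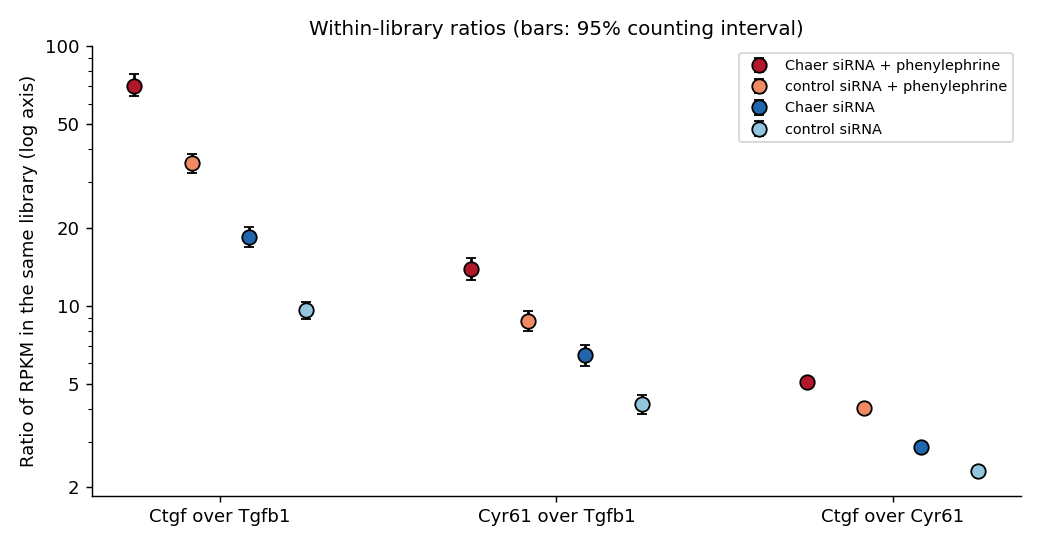
Ratios of RPKM between 2 of the genes in the same library (y axis, log scale) for the 3 pairs of genes (x axis), with 1 point for each library and 95% counting intervals. In each pair the ratio is highest with Chaer siRNA and phenylephrine and lowest with control siRNA alone, and Ctgf over Tgfb1 spans 9.59 to 70.4.

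An additive fit over all 4 libraries, with a term for phenylephrine and a term for the siRNA, set 2 libraries against 2 for each factor. It used TMM scaling, unlike the RPKM ratios above. Scaled by library size alone, its log2 phenylephrine terms were 1.65 for Ctgf, 0.82 for Cyr61 and -0.26 for Tgfb1, each below the value that follows. Ctgf rose with phenylephrine by 1.75 ± 0.15 (SE) on the log2 scale and Cyr61 by 0.92 ± 0.14 (SE), with edgeR adjusted p = 9.02e-29 and adjusted p = 9.48e-10. For Tgfb1 this term was -0.16 ± 0.17 (SE, edgeR adjusted p = 0.598). At this threshold, an adjusted p under 0.05, 2 of 3 genes were called, beside 15.4% of features. The spread behind these values is the departure from additivity pooled over all features, with 1 residual degree of freedom, and not a spread between cultures. Without an siRNA term, which puts the siRNA difference into the residual spread, the edgeR values were adjusted p = 0.0802 for Ctgf and adjusted p = 0.115 for Cyr61.

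For the siRNA term the fit called 2 of 3 genes, beside 19.6% of features, and neither call held in each alternative. Tgfb1 had -0.59 ± 0.17 (SE, edgeR adjusted p = 0.00376), and Ctgf had 0.38 ± 0.15 (SE, edgeR adjusted p = 0.0488). The adjusted p of Ctgf was 0.0658 with scaling by library size alone in edgeR, 0.0676 with DESeq2 and 0.890 in edgeR without a phenylephrine term. That of Tgfb1 was 0.1002 with DESeq2 and 0.232 in edgeR without a phenylephrine term. Cyr61 had 0.06 ± 0.14 (SE, edgeR adjusted p = 0.841).

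The pattern of each gene was also compared with the other 12225 features, as the Euclidean distance between log2 values of RPKM + 1 centred over the 4 libraries. Nearest to Ctgf was ENSRNOG00000009946, at a distance of 0.14, with 154 RPKM for Chaer siRNA with phenylephrine, 125 RPKM for control siRNA with phenylephrine, 54.4 RPKM for Chaer siRNA alone and 42.4 RPKM for control siRNA alone. Only 5 features lay within a distance of 0.25 of Ctgf, against 86 for Cyr61 and 409 for Tgfb1. ENSRNOG00000008937 was nearest to Cyr61, at 0.049, and ENSRNOG00000005931 to Tgfb1, at 0.032. The distance between Ctgf and Cyr61 was 0.89, with 1.14% of features nearer to Ctgf than Cyr61 was, and that between Ctgf and Tgfb1 was 2.08. With 4 libraries such a distance describes the shape of 4 values and nothing more.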

How the data were processed

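Total RNA was sequenced from stranded libraries, per the labels' protocols. TopHat2 and build rn5 appear in the submitters' processing notes. How reads were counted, with which annotation and whether by strand, is not given in the sources used here. Each feature has a read count and an RPKM value deposited by the authors, per the file headers. Counts divided by RPKM gave whole gene lengths and 1 read total for each library, 35314303 to 40835172 reads, of which 3.88% to 4.29% fell outside the listed features. Counting intervals came from the read counts of each gene, and the totals only scaled the ratios between libraries. The intervals were exact Poisson for levels and exact binomial for ratios. Differences of levels used a normal approximation on RPKM. Ratios of folds and changes of within-library ratios used a normal approximation on log counts.

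Ratios used a pseudocount of 1 and the 12226 features whose RPKM averaged 1 or more. Named features were the 3 genes and the nearest feature to each. The members, lists and tests were chosen with earlier results of these data known. Lists of pathway genes and cell type markers planned by symbol could not be applied, since 0 identifiers were paired with symbols. The additive fit used edgeR 4.0.16 (quasi-likelihood, TMM, Benjamini-Hochberg over all features), with DESeq2 1.42.0 as an alternative. The edgeR test gives no SE, so each SE was calculated from the log2 change and the F statistic of its test. The prior degrees of freedom came out as infinite, so each SE follows a trend over all features. Analyses ran in R 4.3.3 and Python 3.11.15 with scipy 1.17.1.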

Additional observations from a re-analysis of the deposited data

How the results depend on the processing

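The direction of Ctgf, Cyr61 and Tgfb1 in the 4 comparisons and the difference was kept under each pseudocount, filter and scaling run, except that Cyr61 for Chaer siRNA with phenylephrine turned from a log2 ratio of 0.01 to -0.0029 without the 20 most abundant features in the scaling. The log2 ratio of Ctgf ran from 1.62 to 1.76 for phenylephrine with control siRNA and from 1.58 to 1.72 with Chaer siRNA. With a 1.5-fold rule, 2 of 3 genes (Ctgf and Cyr61) passed in both phenylephrine comparisons. By that rule 1 gene, Tgfb1, passed for Chaer siRNA with phenylephrine, but its ratios with TMM, median-ratio scaling and a pseudocount of 5 lie short of 1.5-fold. Dropping the other factor from the additive edgeR fit left 0 members called for either factor. For the siRNA term, DESeq2 called 0 members and library size alone called 1, Tgfb1. The cause was not tested.

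For phenylephrine with control siRNA, phenylephrine with Chaer siRNA, Chaer siRNA without and Chaer siRNA with phenylephrine, 211, 241, 261 and 226 features passed 2-fold. With a pseudocount of 0.1 these were 351, 424, 463 and 433, with a pseudocount of 5 they were 93, 96, 92 and 84, and with the 1.5-fold rule 924, 1245, 1363 and 1074. The difference of the effects passed for 66 features, and for 205, 10 and 751 under those settings and 32 with a mean of at least 5 RPKM. The split of directions moved too: it was 137 higher and 74 lower for phenylephrine with control siRNA (162 and 53 with TMM, 182 and 169 with a pseudocount of 0.1, 433 and 491 at 1.5-fold), and 134 and 107 with Chaer siRNA (179 and 71 with TMM, 173 and 74 with median ratios, 200 and 224 with a pseudocount of 0.1, 522 and 723 at 1.5-fold). Without the 20 most abundant features it was 95 higher and 170 lower for Chaer siRNA without phenylephrine, against 125 and 136, and 65 and 19 for the difference (52 and 23 with median ratios), against 39 and 27. The additive fit called 1071 features higher and 806 lower for phenylephrine (703 and 1292 with library size alone), and 1154 higher and 1243 lower for the siRNA (646 and 417 with DESeq2). Its totals of 1877 for phenylephrine and 2397 for the siRNA became 903 and 1063 with DESeq2 and 8 and 1 with the other factor left out.

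No paired analysis was possible because every library is the sole member of its group, so its number gives no second pair; the additive fit blocks each factor by the other. No library can be spared. Counting intervals were widest, as a share of the level, for Tgfb1.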
